A study of Homo sapiens with 36 samples.

Results

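A set of 9 genes of MHC class I antigen presentation was followed in the IGR37 and 501mel melanoma cell lines after the fatty acid desaturase SCD was inhibited or its mRNA was lowered. They were HLA-B and HLA-C, B2M, TAP1, TAP2, TAPBP, PSMB8, PSMB9 and ERAP1, taken by symbol, and all 9 were found among 13364 genes of the first table and 13066 genes of the second. Their symbols were chosen with earlier results of these data known. The data were 36 libraries of transcript 3' ends in 12 groups of 3, all taken after 48 h. Each line was grown in RPMI with 10% FBS and received A939372, an inhibitor of SCD, at 1 uM (called SCDi), or the solvent DMSO. Other cells of each line received siRNA at 20 nM: siSCD_1 or siSCD_2 against SCD, or a control siRNA, named siCTR_1 or siCTR by the sample titles. Genotypes, clonal origin and HLA types of the lines are not stated in the labels, and no group received interferon. The labels do not say whether the 3 libraries of a group came from separate cultures, so the spread behind a p-value here may be technical. That spread is the one among libraries of the same group, pooled over all groups of a table.

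MHC class I molecules carry short peptides from inside the cell to its surface, where cytotoxic T cells inspect them. The proteasome cuts proteins into peptides, and its immune form replaces catalytic subunits with inducible ones such as PSMB8 and PSMB9. The TAP1 and TAP2 transporter moves the peptides into the endoplasmic reticulum, ERAP1 trims them, and tapasin (TAPBP) holds the transporter beside an empty class I molecule made of a heavy chain, such as HLA-B or HLA-C, and the light chain B2M. Interferons and NF-kB are known inducers of many of these genes, and melanomas that lose them can escape T cells.

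The genes lie in 3 places of the genome. By GENCODE 29 on GRCh38, HLA-C (ENSG00000204525.16, chr6:31268749-31272130, minus strand) and HLA-B (ENSG00000234745.10, chr6:31269491-31357188, minus strand) neighbour each other, and the annotated span of HLA-B runs into HLA-C, with 35 exon bases in common. PSMB8 (ENSG00000204264.9, chr6:32840717-32844703, minus strand), PSMB9 (ENSG00000240065.7, chr6:32844136-32859585, plus strand), TAP1 (ENSG00000168394.11, chr6:32845209-32853978, minus strand) and TAP2 (ENSG00000204267.13, chr6:32821833-32838780, minus strand) form a cluster, with TAPBP (ENSG00000231925.11, chr6:33299694-33314387, minus strand) farther along. B2M (ENSG00000166710.18) lies at chr15:44711487-44718877 on the plus strand, and ERAP1 (ENSG00000164307.12) at chr5:96760810-96808100 on the minus strand. The antisense gene PSMB8-AS1 shares exon bases with TAP1, PSMB8 and PSMB9, and CAST shares exon bases with ERAP1, while an unnamed gene model on the same strand covers exons of TAP2. The way the authors assigned reads by strand is not given in the sources used here, so those 5 genes, and HLA-B, which shares exon bases with a pseudogene model on the opposite strand, may hold reads of their neighbours. HLA-B and HLA-C have near-identical relatives and differ between people. No 50-base stretch in the last 300 bases of their longest coding transcripts recurred in a transcript of another gene, yet reads of non-reference alleles may still be lost or misplaced. Between the lines, a different level and a different match of the line's alleles to the reference cannot be told apart for these 2 genes.

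The promoters were searched for motifs as spelled below, so variant spellings were not counted. Each window below runs from 250 bases before to 50 bases after the start in RefSeq (GRCh38.p14), and capitals mark matches to the interferon response core GAAANNGAA and to the NF-kB motif on either strand. HLA-B and HLA-C are shown because they stood in opposite order between the lines, and B2M and TAPBP because siSCD_2 moved them in opposite directions. The windows are chr6:31357130-31357429 (minus strand) for HLA-B, chr6:31272043-31272342 (minus strand) for HLA-C, chr15:44711267-44711566 (plus strand) for B2M and chr6:33314029-33314328 (minus strand) for TAPBP.
HLA-B: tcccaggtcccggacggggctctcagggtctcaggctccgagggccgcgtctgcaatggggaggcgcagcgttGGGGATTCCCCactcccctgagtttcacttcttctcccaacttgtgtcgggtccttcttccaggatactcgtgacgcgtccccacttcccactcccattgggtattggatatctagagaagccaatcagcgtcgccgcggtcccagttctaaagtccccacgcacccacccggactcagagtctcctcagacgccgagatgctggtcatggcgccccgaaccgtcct
HLA-C: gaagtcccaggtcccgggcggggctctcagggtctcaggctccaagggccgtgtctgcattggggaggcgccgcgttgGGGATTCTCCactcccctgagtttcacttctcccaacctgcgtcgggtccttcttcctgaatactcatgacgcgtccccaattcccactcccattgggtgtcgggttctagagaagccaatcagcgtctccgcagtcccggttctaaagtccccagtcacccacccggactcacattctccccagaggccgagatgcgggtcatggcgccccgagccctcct
B2M: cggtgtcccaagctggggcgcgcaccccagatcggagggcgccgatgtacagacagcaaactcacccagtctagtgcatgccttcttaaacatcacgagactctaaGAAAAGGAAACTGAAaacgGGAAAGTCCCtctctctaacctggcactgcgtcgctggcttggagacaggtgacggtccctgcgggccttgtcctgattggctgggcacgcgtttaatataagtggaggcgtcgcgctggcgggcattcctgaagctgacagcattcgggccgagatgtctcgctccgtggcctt
TAPBP: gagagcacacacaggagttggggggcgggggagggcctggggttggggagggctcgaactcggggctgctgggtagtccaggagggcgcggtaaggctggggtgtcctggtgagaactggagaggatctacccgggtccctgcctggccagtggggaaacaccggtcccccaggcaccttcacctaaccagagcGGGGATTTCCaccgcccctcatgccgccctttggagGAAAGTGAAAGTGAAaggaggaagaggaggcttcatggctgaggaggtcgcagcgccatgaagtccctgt

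The heavy chain windows each held NF-kB matches (in HLA-B a run of overlapping ones) and no match to the interferon response core as spelled here. B2M and TAPBP each held 2 overlapping interferon response cores beside an NF-kB match, as did the TAP1 window at chr6:32853655-32853954. Of all 35116 RefSeq windows, 8.11% held the interferon response core, 11.3% the NF-kB motif and 0.618% both. Of the 9 members, 3 (TAP1, PSMB8 and ERAP1) had a second window, while the shares above are per window. The core was found for 5 of the 9 members in the first window, and for PSMB8 in its second, the NF-kB motif for 6 in the first window, and both in the same window for 4 (B2M, TAP1, TAPBP and ERAP1). The PSMB9 window held neither, and its start lies 488 bases from that of TAP1, which is read in the opposite direction. The gamma-activated site TTCNNNGAA, held by 7.66% of all windows, was in no first window of the 9 and in the second windows of TAP1 and PSMB8. CCAAT, held by 34.6% of all windows, was in the first window of 6 members. These matches describe the letters only.

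Levels are log2 CPM, counts per library total on a log2 scale after the authors' scaling, so that a difference of 1 is a 2-fold difference. Changes are log2 fold changes ± SE from limma, and a gene was called at a Benjamini-Hochberg adjusted p under 0.05 over all genes of the table. Library depth ran between 4078450 and 6685898 gene reads in the first table (SCDi, DMSO, siSCD_2 and siCTR) and between 2402788 and 7483010 in the second (siSCD_1 and siCTR_1). The tables were normalised apart, so levels are compared only within one. The pigment cell markers were listed in both (6 of 6), summing to at least 3137.5 CPM in the first and 2235.4 CPM in the second. Markers of other cell types summed to at most 21.2 CPM in any library (fibroblast list, 3 of 5 genes with a value), and none of 5 blood markers, PTPRC among them, had a value here. SCD mRNA fell with both siRNAs in both lines, with log2 changes of -2.67 to -4.33.

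**Figure D1:**
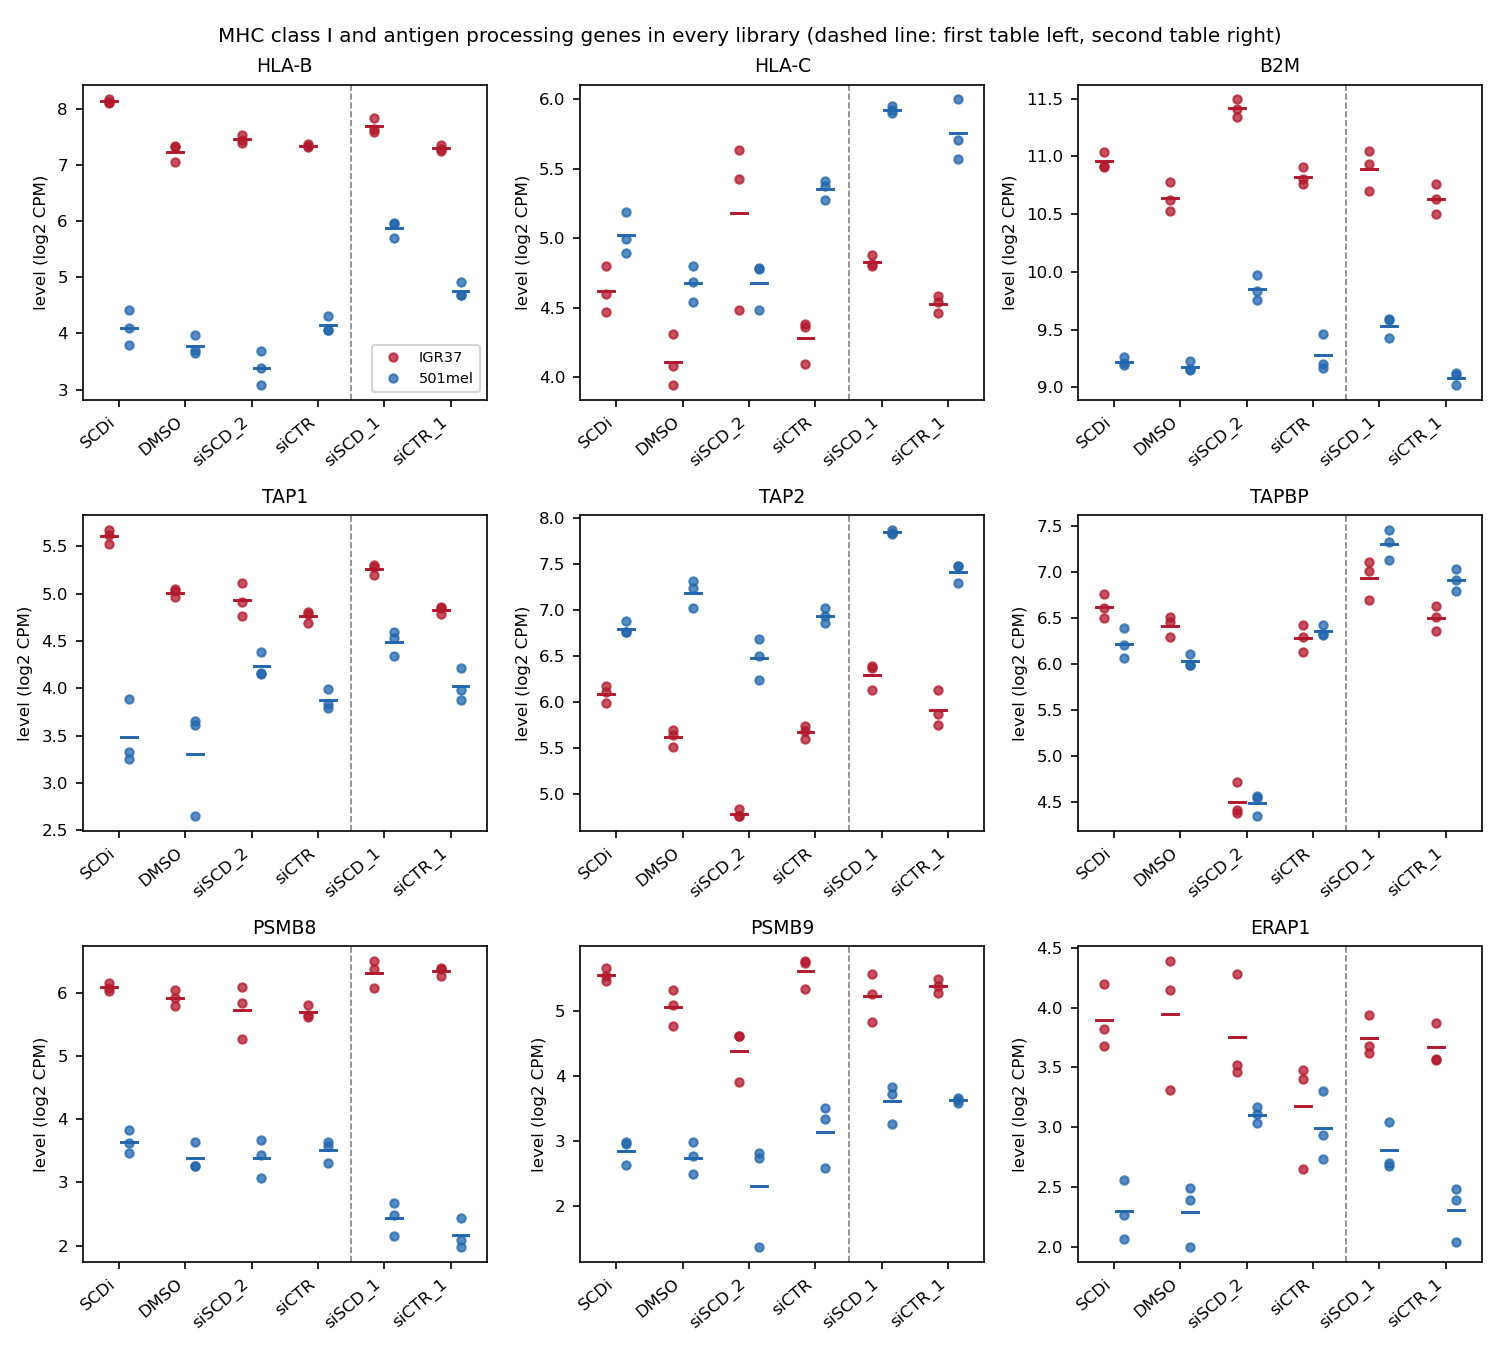
Level (y axis, log2 CPM) of each of the 9 genes in every library, by treatment (x axis) and line (red IGR37, blue 501mel), with short bars at the group means of 3 libraries. HLA-B, PSMB8 and PSMB9 sat higher in IGR37 in every group, TAP2 sat higher in 501mel, and TAPBP was lowest in the siSCD_2 libraries of both lines.

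IGR37 carried more of most class I genes than 501mel before any SCD treatment, with HLA-C and TAP2 lower in IGR37 in all 3 control settings and TAPBP lower there under siCTR_1. Under DMSO, 7 of the 9 genes were higher and 2 lower in IGR37, where 31.1% of all genes were called higher and 29.7% lower. Between the siCTR groups 5 were higher and 2 lower (background 32.1% and 30.4%), and between the siCTR_1 groups 6 were higher and 3 lower (31.1% and 29.2%). In bulk libraries, fewer cells with a transcript and less of it per cell cannot be told apart. The median difference over the 9 was 1.66, 0.89 and 1.36 in these 3 settings, against 0.02, 0.03 and 0.03 over all genes tested.

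**Figure D2:**
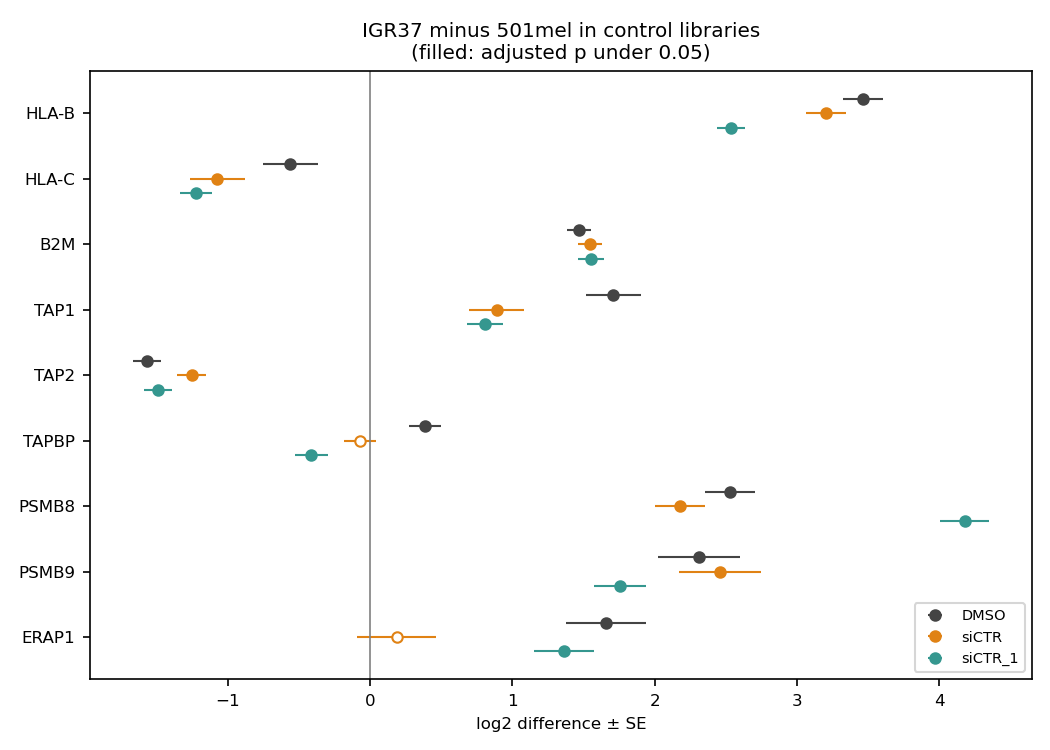
Difference between the lines (x axis, IGR37 minus 501mel, log2 ± SE) for each gene (y axis) in the DMSO, siCTR and siCTR_1 libraries, with filled points at an adjusted p under 0.05. HLA-B, B2M, TAP1, PSMB8 and PSMB9 lay right of 0 in all 3 settings, HLA-C and TAP2 left of it, and TAPBP on both sides.

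SCD inhibition raised class I genes in IGR37 and gave no call in 501mel. In IGR37, 5 of the 9 rose with SCDi (HLA-B, HLA-C, B2M, TAP1 and TAP2) and 0 were called lower, where 20.9% of all genes rose and 23.1% fell. The median change of the 9 was 0.48, against 0.00 over all genes. In 501mel limma called 0 of the 9 and voom called 0, against a background of 0.232% risen and 0.0599% fallen by limma. At an unadjusted limma p under 0.05 there were 2 of the 9, against 1311 of all 13364 genes. Few genes of any kind were called there, and the median of the 9 was 0.19.

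Markers of pigment cells, of fibroblasts and, at low levels, of other cell types moved in some of the same comparisons. With SCDi in IGR37, 5 of 6 pigment cell markers fell, where 23.1% of all genes fell. The sum of the 6 was 3137.5 to 3377.7 CPM with SCDi, against 4537.4 to 4778.4 CPM with DMSO. All 3 fibroblast markers with a value (of 5) fell there, with a sum of 3.26 to 5.16 CPM with SCDi, against 14.4 to 16.8 CPM with DMSO, mostly LUM (57 reads against 222). COL1A1 had 0 reads with SCDi in IGR37 and 5 with DMSO. With siSCD_2 5 pigment cell markers fell and 1 rose in IGR37, and 4 fell and 1 rose in 501mel. Of all genes, 22.7% fell and 23.2% rose with siSCD_2 in IGR37, and 19.5% fell and 18.3% rose in 501mel. With siSCD_1 2 pigment cell markers fell in IGR37 and all 6 fell in 501mel, where 19.4% and 22.0% of all genes fell. The sum of the 6 was 2235.4 to 2332.3 CPM with siSCD_1 in 501mel, against 3394.9 to 3633.2 CPM with siCTR_1. Of the fibroblast markers, 1 rose and 1 fell with siSCD_2 in IGR37. LUM, with a value in the second table, rose with siSCD_1 in 501mel, where 20.9% of all genes rose. In that comparison 1 of the 2 endothelial markers with a value rose too, with a list sum of at most 0.647 CPM with siSCD_1. KRT18, the epithelial marker with a value, rose with siSCD_2 in IGR37, to at most 0.592 CPM. The part of these markers in the changes of the 9 genes was not tested.

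The counts of the 9 genes risen and fallen were not the same for the 2 siRNAs against SCD. With siSCD_1, 6 of the 9 rose in IGR37 and 5 in 501mel, and 0 fell. The background was 16.7% risen and 19.4% fallen in IGR37, and 20.9% and 22.0% in 501mel. Without IGR37 siCTR_1 replicate 1 the IGR37 count was 3, with HLA-C, B2M and TAP1 lost. With siSCD_2, 2 rose and 3 fell in IGR37, and 1 rose and 5 fell in 501mel, where the background was 23.2% risen and 22.7% fallen in IGR37 and 18.3% and 19.5% in 501mel. The median change of the 9 with siSCD_1 was 0.30 in IGR37 and 0.43 in 501mel, and with siSCD_2 it was 0.11 in IGR37 and -0.46 in 501mel. These siRNAs were read in separately normalised tables against different control groups, so the difference between them was not tested. Spike-in RNAs took a larger share of reads with siSCD_1 than with siCTR_1 in 501mel (5.1 to 5.7% against 3.8 to 4.3%). In IGR37 these shares were 4.6 to 5.5% and 4.0 to 4.7%. With siSCD_2 and siCTR they were 5.2 to 7.0% and 3.8 to 5.1% in 501mel, and 5.1 to 7.2% and 4.3 to 4.8% in IGR37. Levels here are relative to library totals, and changes relative to spike-ins were not tested.

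**Figure D3:**
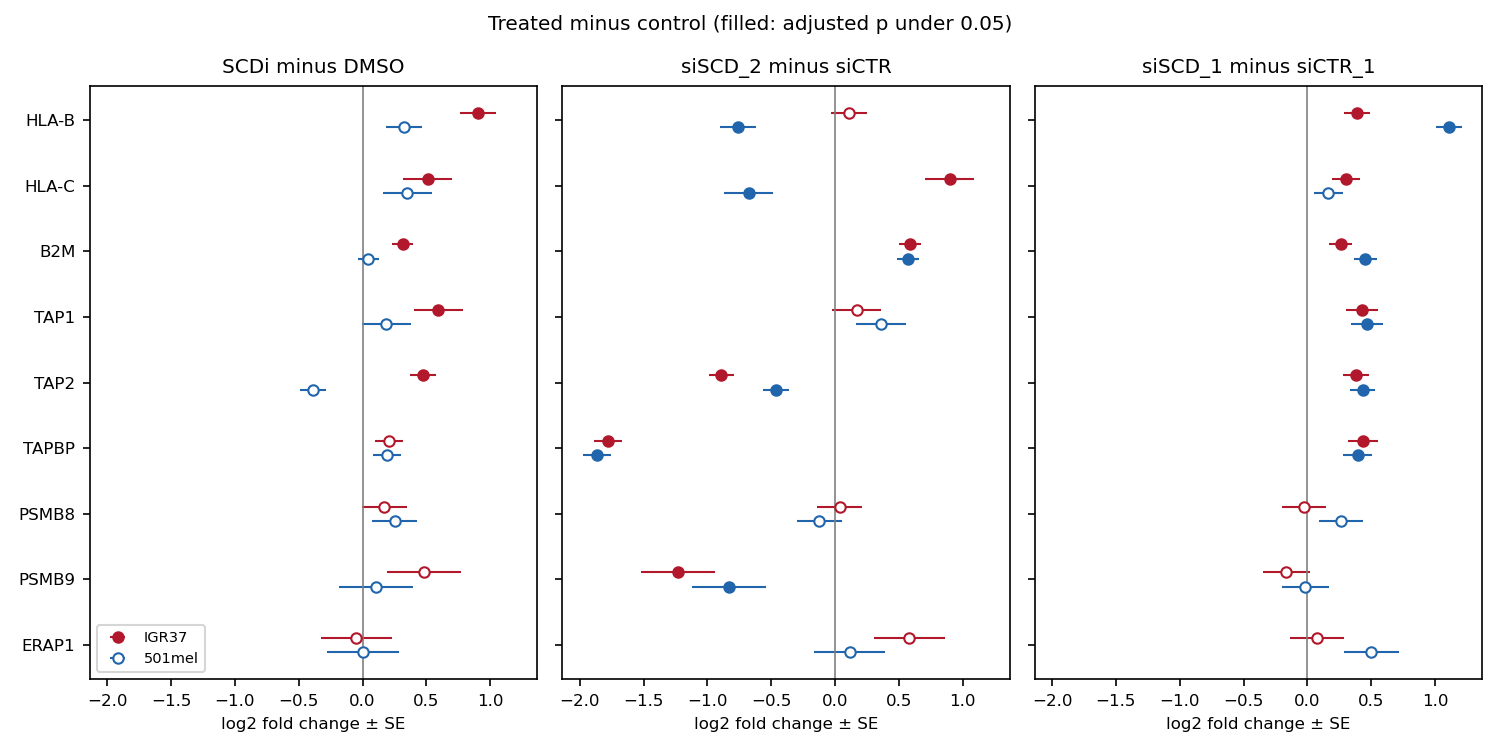
Change from control (x axis, log2 fold change ± SE) of each gene (y axis) with SCDi, siSCD_2 and siSCD_1 in IGR37 (red) and 501mel (blue), with filled points at an adjusted p under 0.05. B2M lay right of 0 in all 6 comparisons, and TAPBP lay near -1.8 with siSCD_2 but right of 0 with SCDi and siSCD_1.

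HLA-B, a classical heavy chain, had the largest difference of the 9 genes between the lines under DMSO and under siCTR, and rose in 3 of the 6 comparisons with controls. Under DMSO its level was 7.06, 7.34 and 7.32 log2 CPM in IGR37, against 3.71, 3.65 and 3.97 in 501mel. That is 151 CPM at the mean in IGR37 and 13.7 CPM in 501mel, a difference of 3.46 ± 0.14 (adjusted p = 2.02e-16). Every IGR37 library lay far above every 501mel one, and the differences under siCTR (3.20 ± 0.14) and siCTR_1 (2.54 ± 0.10) had the same sign.

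With SCDi, HLA-B in IGR37 reached 8.18, 8.13 and 8.12, against the DMSO values above, a rise of 0.91 ± 0.14 (adjusted p = 8.29e-06). The treated libraries lay within a narrow band above all controls. In 501mel the SCDi libraries gave 3.80, 4.41 and 4.10, which overlapped the DMSO libraries (0.33 ± 0.14, adjusted p = 0.43). The change was larger in IGR37 than in 501mel by 0.58 ± 0.20 (adjusted p = 0.0304). This call was lost without IGR37 SCDi replicate 1 or 2, IGR37 DMSO replicate 1, 501mel SCDi replicate 1 or 3, or 501mel DMSO replicate 3, with an adjusted p of up to 0.112. It was also lost with no variance trend (adjusted p = 0.0539).

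Under siSCD_1 the larger rise was in 501mel. HLA-B was 7.64, 7.84 and 7.59 with siSCD_1 in IGR37, against 7.26, 7.37 and 7.28 with siCTR_1, a rise of 0.39 ± 0.10 (adjusted p = 0.00624). The 501mel values were 5.70, 5.98 and 5.95, against 4.69, 4.92 and 4.69, a rise of 1.11 ± 0.10 (adjusted p = 3.34e-07). Neither pair of groups overlapped, and the effect in IGR37 was smaller than that in 501mel by a log2 difference of -0.72 ± 0.14 (adjusted p = 0.00243).

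With siSCD_2 HLA-B fell in 501mel and was not called in IGR37. In IGR37 the values were 7.53, 7.45 and 7.39 with siSCD_2, against 7.37, 7.34 and 7.33 with siCTR, a change of 0.11 ± 0.14 (adjusted p = 0.551). In 501mel they were 3.08, 3.70 and 3.38 with siSCD_2, against 4.06, 4.06 and 4.30 with siCTR, a change of -0.76 ± 0.14 (adjusted p = 0.000113). All treated libraries lay above all controls in IGR37, by a narrow margin, and below them in 501mel. The effects differed between the lines by 0.87 ± 0.20 (adjusted p = 0.00246). The 501mel libraries with siSCD_2 overlapped those with DMSO (3.65 to 3.97). HLA-B with siCTR was 0.37 ± 0.14 above DMSO in 501mel, which was not called (adjusted p = 0.0944). Since the DMSO cells received no siRNA, they are not the matched control of siSCD_2.

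HLA-C, the other heavy chain, was lower in IGR37 than in 501mel. Under DMSO it was 4.31, 3.94 and 4.08 in IGR37, against 4.69, 4.54 and 4.80 in 501mel, a difference of -0.56 ± 0.19 (adjusted p = 0.0137). The lines did not overlap, although the call was lost without 501mel DMSO replicate 3 or IGR37 DMSO replicate 2 (adjusted p = 0.0537 and 0.0631). Differences under siCTR (-1.08 ± 0.19, adjusted p = 2.98e-05) and siCTR_1 (-1.23 ± 0.11, adjusted p = 1.41e-07) were further from 0.

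The 2 heavy chains, HLA-B and HLA-C, thus stood in opposite order between the lines, and siSCD_2 moved HLA-C in opposite directions in them. With siSCD_2 HLA-C was 5.63, 4.48 and 5.43 in IGR37, against 4.09, 4.38 and 4.36 with siCTR, a rise of 0.90 ± 0.19 (adjusted p = 0.000419). The second treated library stood far below the others and only just above the controls, and in a fit of these groups alone the adjusted p was 0.0621. In 501mel it was 4.78, 4.78 and 4.48 with siSCD_2, against 5.28, 5.41 and 5.38 with siCTR (-0.67 ± 0.19, adjusted p = 0.00693). The effects differed by 1.57 ± 0.27 (adjusted p = 0.000152).

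HLA-C also differed between the 2 kinds of control in 501mel, siCTR and DMSO. HLA-C was 0.68 ± 0.19 higher with siCTR than with DMSO in 501mel (adjusted p = 0.0212), the 1 call among the 9 genes in that comparison (background 4.74% higher, 6.57% lower). It was lost without 501mel siCTR replicate 2 or 3 or DMSO replicate 1 or 2, with an adjusted p of up to 0.0803. Levels of HLA-C with siSCD_2 (4.48 to 4.78) overlapped those with DMSO (4.54 to 4.80). The DMSO cells received no siRNA, so siCTR is the matched control. The part of the siCTR level in the fall with siSCD_2 was not tested. Of the 9 genes, 6 had an unadjusted limma p under 0.05 for siCTR against DMSO in 501mel, against 3200 of all 13364 genes. HLA-B, HLA-C, TAP1, TAPBP and ERAP1 were higher there and TAP2 was lower. The median change of the 9 was 0.37, against 0 over all genes. In IGR37 limma called 0 of the 9 between siCTR and DMSO, where 6.46% of all genes were higher and 8.99% lower. After median centring 53.6% of the calls were higher, in place of 41.8%. Of the 9, 2 had an unadjusted limma p under 0.05 in IGR37, against 3752 of all 13364 genes. By voom 2 were called, PSMB9 and ERAP1. The siCTR and DMSO comparison uses the same libraries as the SCDi and siSCD_2 ones.

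With SCDi, HLA-C in IGR37 was 4.80, 4.47 and 4.60, above all DMSO libraries (0.51 ± 0.19, adjusted p = 0.0331). This call did not hold without DMSO replicate 2 or 3 or SCDi replicate 1 or 3, where the adjusted p was up to 0.127, nor with no variance trend (0.0556). In 501mel the values were 5.19, 4.99 and 4.89, also above all DMSO libraries, with a change of 0.35 ± 0.19 that was not called (adjusted p = 0.586). With siSCD_1 the change was 0.30 ± 0.11 in IGR37 (adjusted p = 0.0461) and 0.16 ± 0.11 in 501mel (adjusted p = 0.261). The siSCD_1 call in IGR37 was lost without any 1 of its 6 libraries, with an adjusted p of up to 0.135.

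B2M, the light chain shared by all class I molecules, was higher in IGR37 and rose in 5 of the 6 comparisons with controls. Under DMSO it was 10.53, 10.78 and 10.62 in IGR37, against 9.23, 9.15 and 9.16 in 501mel, or 1598 CPM against 579 CPM at the means. The difference was 1.46 ± 0.08 under DMSO (adjusted p = 1.9e-13), and 1.55 ± 0.08 and 1.55 ± 0.09 under siCTR and siCTR_1. No IGR37 library came near a 501mel one.

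The rise of B2M with siSCD_2 was of like size in both lines. It was 11.41, 11.50 and 11.34 with siSCD_2 in IGR37, against 10.91, 10.76 and 10.81 with siCTR (0.59 ± 0.08, adjusted p = 3.25e-06). In 501mel it was 9.75, 9.97 and 9.83 with siSCD_2, against 9.46, 9.20 and 9.17 with siCTR (0.57 ± 0.08, adjusted p = 6.95e-06). All treated libraries lay above all controls in each line, and the effects differed by 0.02 ± 0.12 (adjusted p = 0.939).

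With siSCD_1, B2M in IGR37 was 10.70, 11.04 and 10.94, against 10.63, 10.77 and 10.51 with siCTR_1, where the groups overlapped (0.26 ± 0.09, adjusted p = 0.0329). Without siSCD_1 replicate 2 or 3 or siCTR_1 replicate 1 or 3 the adjusted p was between 0.0783 and 0.154, and it was 0.134 in a fit of these groups alone and 0.0992 with no variance trend. In 501mel it was 9.60, 9.42 and 9.59, against 9.10, 9.02 and 9.13, a rise of 0.45 ± 0.09 (adjusted p = 0.000725) with no overlap. SCDi gave 10.92, 11.04 and 10.91 in IGR37, all above the DMSO libraries (0.31 ± 0.08, adjusted p = 0.00382, or 0.123 after quantile normalisation). In 501mel SCDi gave 9.21, 9.20 and 9.26, which overlapped DMSO (0.05 ± 0.08, adjusted p = 0.926). The SCDi effects on B2M differed by 0.27 ± 0.12 (adjusted p = 0.101), which was called in a fit of these groups alone (0.0309), after median centring (0.0381) and by voom (0.0462).

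The 2 subunits of the peptide transporter, TAP1 and TAP2, stood in opposite order between the lines. TAP1 under DMSO was 5.05, 5.02 and 4.96 in IGR37, against 2.65, 3.65 and 3.61 in 501mel, a difference of 1.71 ± 0.19 (adjusted p = 3.75e-08). The first 501mel library stood well below its group. The differences under siCTR and siCTR_1 were 0.89 ± 0.19 (adjusted p = 0.000313) and 0.81 ± 0.13 (adjusted p = 4.26e-05). TAP2 under DMSO was 5.64, 5.70 and 5.51 in IGR37, against 7.01, 7.31 and 7.23 in 501mel, a difference of -1.57 ± 0.10 (adjusted p = 1.26e-12). TAP2 was lower in IGR37 under siCTR (-1.26 ± 0.10) and siCTR_1 (-1.49 ± 0.10) too, with no overlap in any of these settings.

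TAP1 rose in 3 comparisons. With SCDi in IGR37 it was 5.67, 5.62 and 5.52, above all DMSO libraries (0.59 ± 0.19, adjusted p = 0.0147). With siSCD_1 it was 5.28, 5.30 and 5.20 in IGR37, against 4.79, 4.86 and 4.85 with siCTR_1 (0.43 ± 0.13, adjusted p = 0.0145). In 501mel siSCD_1 gave 4.60, 4.34 and 4.53, against 3.98, 4.22 and 3.87 (0.47 ± 0.13, adjusted p = 0.00708). Treated and control libraries did not overlap in any of these 3, and the IGR37 siSCD_1 call was lost without siCTR_1 replicate 1 (adjusted p = 0.0505). The other 3 changes were positive but not called, at 0.19 ± 0.19 for SCDi in 501mel, and 0.17 ± 0.19 in IGR37 and 0.36 ± 0.19 in 501mel for siSCD_2. The SCDi effects on TAP1 differed by 0.41 ± 0.27 (adjusted p = 0.292), or by 0.74 without 501mel DMSO replicate 1 (adjusted p = 0.0144).

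TAP2 rose with siSCD_1 and fell with siSCD_2 in both lines. With siSCD_1 it was 6.39, 6.13 and 6.38 in IGR37, against 5.75, 6.13 and 5.88 with siCTR_1 (0.38 ± 0.10, adjusted p = 0.00724, or 0.0538 in a fit of these groups alone), with the second treated library at the edge of the controls. In 501mel siSCD_1 gave 7.83, 7.87 and 7.84, against 7.29, 7.47 and 7.47 (0.43 ± 0.10, adjusted p = 0.00238), with no overlap. With siSCD_2 TAP2 fell in IGR37 to 4.77, 4.76 and 4.84, against 5.75, 5.69 and 5.60 with siCTR (-0.89 ± 0.10, adjusted p = 8.56e-08). It fell less far in 501mel, to 6.68, 6.50 and 6.24, against 6.93, 7.02 and 6.86 (-0.46 ± 0.10, adjusted p = 0.00069). The difference between these falls was -0.43 ± 0.14 (adjusted p = 0.0339). This call was lost without IGR37 siSCD_2 replicate 1, IGR37 siCTR replicate 1 or 2, 501mel siSCD_2 replicate 1 or 2, or 501mel siCTR replicate 1 or 3, with an adjusted p of up to 0.111. It was also lost in a fit of these groups alone (adjusted p = 0.0948) and by voom (0.0574).

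The response of TAP2 to SCDi differed between the lines. In IGR37 it was 5.99, 6.18 and 6.11, above all DMSO libraries (0.48 ± 0.10, adjusted p = 0.000401). In 501mel it was 6.76, 6.76 and 6.88, below all DMSO libraries, at -0.39 ± 0.10 with an adjusted p of 0.117, so that the 501mel change was not itself called. The difference between the effects was 0.86 ± 0.14 (adjusted p = 5.27e-05). That comparison of effects called 2 of the 9 genes, HLA-B and TAP2, both higher, where 12.3% of all genes were higher and 15.3% lower.

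TAPBP encodes tapasin and showed the largest change of any of the 9 genes in the 6 comparisons with controls. With siSCD_2 it fell to 4.72, 4.39 and 4.42 in IGR37, against 6.14, 6.30 and 6.43 with siCTR (-1.78 ± 0.11, adjusted p = 1.86e-12). In 501mel it fell to 4.55, 4.35 and 4.57, against 6.32, 6.33 and 6.42 (-1.87 ± 0.11, adjusted p = 9.51e-13). The treated libraries of both lines sat together, well below every other library of the table, and the effects differed by 0.09 ± 0.15 (adjusted p = 0.736).

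With the other siRNA TAPBP rose. It was 7.02, 7.11 and 6.69 with siSCD_1 in IGR37, against 6.63, 6.36 and 6.51 with siCTR_1 (0.44 ± 0.11, adjusted p = 0.0072). The 501mel libraries gave 7.33, 7.46 and 7.13, against 7.04, 6.80 and 6.91 (0.39 ± 0.11, adjusted p = 0.0115). The groups did not overlap in either line, and the 501mel call was lost without siCTR_1 replicate 2 or siSCD_1 replicate 2 (adjusted p = 0.0541 and 0.0615). SCDi gave 0.20 ± 0.11 in IGR37 (adjusted p = 0.134) and 0.19 ± 0.11 in 501mel (adjusted p = 0.612), neither called. The IGR37 change was called after quantile normalisation (adjusted p = 0.0291) and median centring (0.0436). Between the lines TAPBP was higher in IGR37 under DMSO (0.38 ± 0.11, adjusted p = 0.0038), lower under siCTR_1 (-0.41 ± 0.11, adjusted p = 0.00548) and not called under siCTR (-0.07 ± 0.11, adjusted p = 0.582).

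PSMB8 and PSMB9, inducible catalytic subunits of the immunoproteasome, were higher in IGR37 in every control setting. PSMB8 under DMSO was 5.92, 5.79 and 6.04 in IGR37, against 3.64, 3.26 and 3.26 in 501mel (2.53 ± 0.18, adjusted p = 5.59e-12). Its difference was 2.18 ± 0.18 under siCTR and 4.18 ± 0.17 under siCTR_1, where the 501mel libraries gave 2.44, 1.97 and 2.09 from 70 reads in all. PSMB9 under DMSO was 5.32, 4.77 and 5.09 in IGR37, against 2.99, 2.77 and 2.49 in 501mel (2.31 ± 0.29, adjusted p = 1.85e-07). PSMB9 differed by 2.46 ± 0.29 under siCTR and 1.76 ± 0.18 under siCTR_1, and the lines did not overlap for either subunit.

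Of these subunits PSMB9 was called with siSCD_2 and PSMB8 was not called. PSMB8 was called in none of the 6 comparisons by limma, nor by voom, and 0 of 6 passed at an unadjusted p under 0.05, with changes between -0.12 and 0.27. PSMB9 fell with siSCD_2 in IGR37 to 4.61, 4.62 and 3.90, against 5.32, 5.73 and 5.76 with siCTR (-1.23 ± 0.29, adjusted p = 0.00112), with no overlap. In 501mel it was 2.74, 2.82 and 1.37 with siSCD_2, against 2.59, 3.33 and 3.51, where the groups overlapped (-0.83 ± 0.29, adjusted p = 0.0247). Without the third treated library the change was -0.36 (adjusted p = 0.287), and without siCTR replicate 2 or 3 the adjusted p was 0.0857 and 0.124. It was 0.235 in a fit of these groups alone and 0.067 by voom. These 501mel values rest on 85 reads with siSCD_2 and 142 with siCTR. In IGR37 with SCDi, PSMB9 was 5.45, 5.53 and 5.65, above all DMSO libraries but not called (0.48 ± 0.29, adjusted p = 0.183, or 0.0208 by voom).

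ERAP1, the aminopeptidase that trims peptides in the endoplasmic reticulum, was called in no comparison of a treatment with its control. Its changes lay between -0.05 ± 0.28 (SCDi in IGR37) and 0.58 ± 0.28 (siSCD_2 in IGR37, adjusted p = 0.0909, or 0.0496 by voom). With siSCD_1 in 501mel it was 0.50 ± 0.21 (adjusted p = 0.0684, or 0.0321 with no variance trend and 0.036 after median centring), with no overlap. Under DMSO it was 4.39, 4.15 and 3.31 in IGR37, against 1.99, 2.39 and 2.49 in 501mel (1.66 ± 0.28, adjusted p = 1.4e-05). The difference was 1.36 ± 0.21 under siCTR_1 (adjusted p = 4.3e-05) and 0.19 ± 0.28 under siCTR, where the lines overlapped (adjusted p = 0.577). The group sums of 74 to 263 reads leave little precision for a gene at this level.

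Differences between the lines in response were thus called for 3 of the 9 genes, with that of B2M to SCDi called under some alternatives only. Of the siSCD_2 effects, 2 were higher in IGR37 (HLA-B and HLA-C) and 1 lower (TAP2), where 11.6% of all genes were higher and 9.47% lower (55.1% of the calls higher, or 43.6% after median centring). Of the siSCD_1 effects, 1 was lower in IGR37 (HLA-B), where 10.0% were higher and 10.3% lower. An uncalled difference between the lines does not show that they responded alike.

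With siSCD_2, 2 partners of tapasin fell in both lines. PDIA3, the disulfide isomerase ERp57 that pairs with tapasin in the peptide loading complex, was 6.11 ± 0.16 with siSCD_2 in IGR37 and 7.80 ± 0.04 with siCTR (SD, n = 3 each), a change of -1.69 ± 0.10 (adjusted p = 1.81e-12). In 501mel PDIA3 was 5.13 ± 0.21 with siSCD_2 and 7.30 ± 0.21 with siCTR (-2.17 ± 0.10, adjusted p = 2.16e-14). The chaperone CALR, another part of that complex, fell by 0.36 on the log2 scale in IGR37 and by 0.78 in 501mel. CALR also fell with SCDi in IGR37 (-0.39 ± 0.08, adjusted p = 0.000287), where TAPBP was not called, and with siSCD_1 in 501mel (-0.38 ± 0.06, adjusted p = 0.000147), where TAPBP rose. CANX, which folds heavy chains before loading, rose with SCDi in IGR37 (0.60 ± 0.08) and with siSCD_1 in both lines (0.47 ± 0.08 in IGR37, 0.21 ± 0.08 in 501mel), and was not called with siSCD_2. Of the 6 loading and trimming partners, which also include TAPBPL, ERAP2 and LNPEP, 2 fell and none rose with siSCD_2 in each line, where 22.7% of all genes fell in IGR37 and 19.5% in 501mel. With SCDi in IGR37 2 rose and 1 fell, where 20.9% of all genes rose and 23.1% fell.

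**Figure D4:**
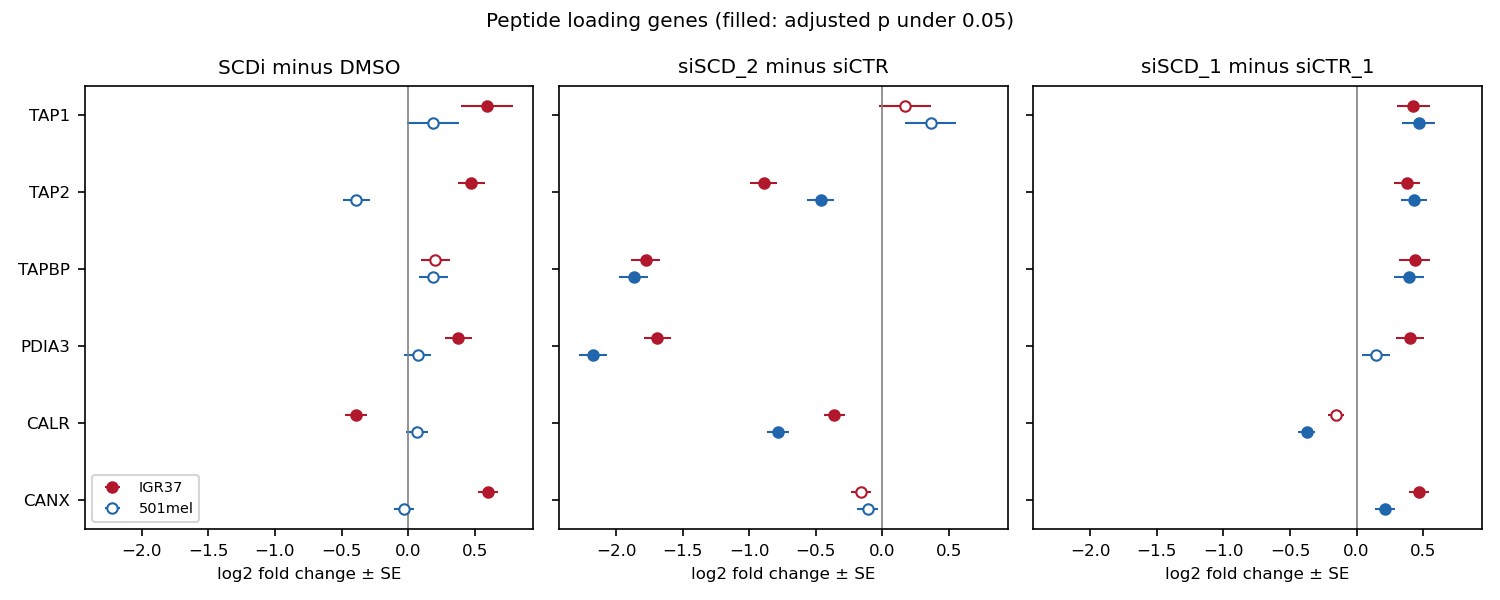
Change from control (x axis, log2 fold change ± SE) of the transporter genes, TAPBP and the loading partners PDIA3, CALR and CANX (y axis) with SCDi, siSCD_2 and siSCD_1 in IGR37 (red) and 501mel (blue), with filled points at an adjusted p under 0.05. With siSCD_2, TAPBP and PDIA3 lay between -2.17 and -1.69 in both lines, while TAP1 lay right of 0.

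The non-classical heavy chains HLA-E and HLA-F rose beside HLA-B with SCDi in IGR37, by 0.49 ± 0.18 and 0.67 ± 0.27. HLA-E, which presents leader peptides to natural killer cells, fell with siSCD_2 in IGR37 (-0.87 ± 0.18, adjusted p = 0.0004). Class II genes gave a value for 2 of 8 (HLA-DRB1 and HLA-DMA), and of these HLA-DMA fell with siSCD_2 in 501mel, with 4 reads in the siSCD_2 group against 21 in the siCTR group.

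The proteasome's other catalytic subunits did not move as one. PSMB5 and PSMB6, which the inducible PSMB8 and PSMB9 replace, fell with SCDi in IGR37 by 0.72 and 0.61 on the log2 scale, while PSMB7 rose (0.46 ± 0.17). PSMB10, the third inducible subunit, fell there (-0.26 ± 0.10, adjusted p = 0.0416) and with siSCD_1 in both lines. Of the 6 genes of this list, which also holds PSME1 and PSME2, 1 rose and 3 fell with SCDi in IGR37 (all genes 20.9% and 23.1%), and none rose and 3 fell with siSCD_1 in 501mel (all genes 20.9% and 22.0%). Between the lines under DMSO, none of the 6 was higher and 2 were lower in IGR37 (all genes 31.1% and 29.7%). PSMB8 and PSMB9 were both higher there.

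Among 17 regulators of class I genes, 7 rose and 2 fell with SCDi in IGR37, where 20.9% of all genes rose and 23.1% fell. The changes of the 17 there ran from -1.74 to 1.54. With siSCD_1, 7 rose and 0 fell in IGR37 (all genes 16.7% and 19.4%), and 7 rose and 2 fell in 501mel (all genes 20.9% and 22.0%). With siSCD_2, 5 rose and 3 fell in IGR37 (all genes 23.2% and 22.7%), and 5 rose and 2 fell in 501mel (all genes 18.3% and 19.5%). With SCDi limma called 0 in 501mel, where 0 also passed at an unadjusted p under 0.05 (all genes 1311 of 13364). IRF1 (1.36 ± 0.36), STAT2 (1.01 ± 0.13) and NFKB1 (0.87 ± 0.14), transcription factors of interferon and NF-kB signalling, were among the 7 that rose in IGR37 with SCDi. The 2 that fell there are not named here. Each of these 3 effects was larger in IGR37 than in 501mel (adjusted p = 0.00809, 0.000661 and 0.00117). Of the 17, 4 SCDi effects were higher in IGR37 and 1 was lower, with differences from -2.07 to 1.81. Of all genes, 12.3% were higher and 15.3% lower in that comparison of effects. STAT2 moved with siSCD_2 in opposite directions in the lines (0.52 ± 0.13 in IGR37 and -1.02 ± 0.13 in 501mel, difference 1.54 ± 0.19). NLRC5, the transactivator of class I promoters, was higher in IGR37 under DMSO by 3.23 ± 0.44 (adjusted p = 7.95e-07), from 138 reads in IGR37 and 14 in 501mel. With siSCD_1 in 501mel, where HLA-B rose, NLRC5 fell (-1.08 ± 0.29, adjusted p = 0.00724). RFX5, which binds class I and class II promoters, rose with siSCD_2 in both lines, by 1.58 ± 0.16 in IGR37 and 0.92 ± 0.16 in 501mel. The part of these regulators in the changes of the 9 genes was not tested.

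Across the 24 libraries of the first table, after each line's mean was removed, the 9 genes did not follow one course. TAP2 and TAPBP had a correlation of 0.84 and TAPBP and PSMB9 one of 0.70, while B2M ran against TAPBP (-0.89) and TAP2 (-0.70), and HLA-B and HLA-C had 0.37. Among 5866 other genes at or above the median level, TAPBP was most like SHISA5 (0.98) and PDIA3 (0.98), and B2M most like SREBF2 (0.95), the regulator of sterol synthesis genes, and CCNL2 (0.93). HLA-B was most like ALKBH3 (0.84) and ITPRIP (0.83), and HLA-C had 0.75 with the interferon-induced IFI6. TAP1 was most like LEMD2 (0.82) and MEF2D (0.81), and TAP2 most like KDELR2 (0.93) and SH3PXD2B (0.92). PSMB9 was most like HELZ2 (0.83) and SLC6A17 (0.82), PSMB8 most like CCDC28A (0.69) and CDKN2D (0.68), and ERAP1 most like RAB18 (0.82) and PLEKHA1 (0.81). These correlations describe libraries that share their treatment groups, and the 3 siSCD_2 libraries of each line weigh heavily where a gene moved with that siRNA.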

How the data were processed

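Libraries of 3' transcript ends were made with the QuantSeq Forward kit, per the labels' protocols, from 36 samples. Per the submitters' processing notes, STAR and edgeR were used with genome build hg38, versions not being stated. The values the authors deposited are on a log2 scale, in 2 tables that were normalised apart. They could be read as log2 CPM, since reads recovered from them were whole to within 0.000258, and a count of 0 reads (up to 3 allowed) corresponds to a level of up to 0.401 to 1.25 CPM by library, for counting error only. Spike-ins took 2.43 to 7.21% of reads.

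Each table was fitted with limma 3.58.1 in R 4.3.3 (variance trend, 1 coefficient per group, all its libraries), two-sided, with Benjamini-Hochberg adjustment over its genes and a threshold of 0.05. The 9 genes, the partner lists and the gene lists for markers were chosen with earlier results of these data known. The 9 genes and any listed partner past the threshold could be named. Genes of like pattern were the 2 with the highest Pearson correlation for each member. Some partner and like-pattern genes are not reported here. One IGR37 siSCD_2 column, numbered 3 in the table and matching no numbered label, was given to its group only. Replicate numbers were not used to pair libraries in the main fit. Of 39 same-numbered pairs, 8 had residual correlations above 0.1. Differently numbered pairs were not examined, so this does not show that pairing was absent. Alternatives were fits of the compared groups alone, no variance trend, a filter (log2 value above 2 in 3 libraries), a pseudocount of 1, quantile normalisation, median centring, voom on recovered reads, a replicate block, and leaving out each library. The fit was tested on simulated data.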

Additional observations from a re-analysis of the deposited data

Results flagged for a closer look

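In 6 cases, over 9 genes and 3 treatments, the response differed between the lines by a test of the difference itself (limma interaction contrast, Benjamini-Hochberg adjusted over all genes). Such calls were common among all genes. With SCDi 12.3% were higher and 15.3% lower in IGR37, with siSCD_2 11.6% and 9.47%, and with siSCD_1 10.0% and 10.3%. With SCDi, the IGR37 minus 501mel difference of the log2 effects was 0.58 for HLA-B (adjusted p = 0.0304) and 0.86 for TAP2 (adjusted p = 5.27e-05). With siSCD_2 it was 0.87 for HLA-B (adjusted p = 0.00246), 1.57 for HLA-C (adjusted p = 0.000152) and -0.43 for TAP2 (adjusted p = 0.0339). With siSCD_1 it was -0.72 for HLA-B (adjusted p = 0.00243). HLA-B was thus the gene whose response was called different between the lines under all 3 treatments. Its effect in IGR37 was above that in 501mel for SCDi and siSCD_2 and below it for siSCD_1. The HLA-B call for SCDi and the TAP2 call for siSCD_2 were each lost when certain single libraries were left out. The former was also lost with no variance trend (adjusted p = 0.0539). The latter was lost in a fit of the compared groups alone (adjusted p = 0.0948) and by voom (0.0574).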

How the results depend on the processing

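Of 126 changes tested (9 genes in 14 comparisons), 70 were called by limma or under an alternative, and none of these changed sign under any alternative. The other 56 were called nowhere, and 23 of them changed sign at least once, with log2 changes of at most 0.19 in size. With siSCD_1 in IGR37, 6 genes were called, and 3 to 5 when 1 library was left out. For the difference in SCDi effect the count was 2, with 1 under no variance trend and 1 to 3 with a library left out. For the difference in siSCD_1 effect it was 1, with 2 after quantile normalisation. Between siCTR and DMSO the count in 501mel was 1, with 2 in the fit of these groups alone, after quantile normalisation or median centring, with voom and with the replicate block, and 0 to 2 with a library left out. In IGR37 it was 0, with 1 under a pseudocount of 1, quantile normalisation or the replicate block, 2 with voom, and 0 to 1 with a library left out. The causes were not tested. The replicate block, whose numbers were not shown to pair libraries, moved no other count by over 1.5 times. Over all genes, SCDi against DMSO in 501mel gave 39 calls, with 8 in the fit of these groups alone, 25 with voom and 17 to 31 with a library left out. The difference in siSCD_2 effect gave 2819 calls, with 1821 in the fit of these groups alone, and siCTR against DMSO in 501mel gave 1511, with 951. Median centring moved the median change of all genes to at most 0.11. Low read sums limit PSMB9 and ERAP1, and PSMB8 and TAP1 in 501mel. They also limit HLA-B in 501mel in the first table (168 to 294 reads per group).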
